A study of Homo sapiens with 12 samples.

Results

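STAT3 is a transcription factor that is activated by cytokines of the IL-6 family, by growth factor receptors and by JAK and SRC kinases. Phosphorylated STAT3 pairs, enters the nucleus and binds promoters at palindromic elements, and its targets include survival genes, growth genes, acute-phase genes and its own feedback inhibitor SOCS3. In carcinomas of the esophagus, as in other epithelial tumours, persistent STAT3 activity is commonly linked to cell survival and growth. The genes described here are 34 textbook direct targets of STAT3, a list whose rule uses no measured value beyond detection. It was nevertheless chosen with earlier results of these data known, as were the other lists below. A gene counted as measured when a probe had a detection p under 0.01 on at least 3 of the 12 arrays, which held for 26 of the 34 and for 12322 genes in all.

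Expression was measured on Illumina BeadChips in 4 groups of 3 cultures, with 1 array each. The OE21 groups were cells given STAT3 siRNA and cells given control siRNA, OE21 being a line from an esophageal squamous cell carcinoma. The OE33 groups were likewise cells given STAT3 siRNA and cells given control siRNA, OE33 being a line from a Barrett's adenocarcinoma. The STAT3 siRNA was a pool of 4 sequences, given at 100 nM in 2 transfections, and the control was a negative siRNA of another supplier, with RNA collected at 72 h counted from the earlier one. The transfection reagent was siPORT NeoFX for OE21 and DharmaFECT for OE33, so the effects of line and of reagent cannot be told apart. The 3 arrays of a group came from 3 independent experiments, per the series' design text. Squamous markers were lower in OE33 than in OE21 for 5 of 5 measured genes of 7 listed (KRT5 and KRT14 among them), and columnar markers were higher for 4 of 4 of 8 listed (KRT8 among them), each at adjusted p under 0.05 in limma. Of markers of other cells, 2 of 6 fibroblast, 3 of 6 leukocyte, 1 of 4 endothelial and 1 of 5 hepatocyte genes were measured. The leukocyte genes CD14, LYZ and CD68 and the endothelial gene VWF were among those measured, and CD68 and VWF were called lower in OE33. The leukocyte genes PTPRC and CD3E were not detected on 3 arrays. Between 18034 and 19149 probes were detected per array, and arrays correlated at 0.968 to 0.989 within either line and at 0.841 to 0.876 between lines.

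Levels below are log2 normalised intensities of 1 probe per gene, and a difference is a difference of 2 such levels, so that a difference of 1 is a doubling. Levels of different probes are not set against each other. The knocked-down gene itself read 6.76, 6.77 and 7.47 on the STAT3 siRNA arrays of OE21, against 9.23, 8.90 and 9.24 on the control arrays. All siRNA arrays were below all controls, the third siRNA array by the least. The difference was -2.12 (SE 0.23, 95% confidence interval -2.67 to -1.58), the smallest p of the 11179 genes tested in OE21, but with limma and Benjamini-Hochberg adjustment it was not called at 0.05 (adjusted p = 0.278). In OE33, STAT3 read 9.10, 8.87 and 9.05 on the STAT3 siRNA arrays, against 9.04, 10.26 and 9.36 on the control arrays. The 2 groups overlapped, and the second control array stood above all others. The OE33 difference was -0.55 (SE 0.30, adjusted p = 0.991), and -0.19 without that control array. The other 2 STAT3 probes differed from it in part. In OE21, 1 of them gave -1.999 (SE 0.15), which passed over all 14682 probes tested singly (limma adjusted p = 0.0382), and the other -2.001 (SE 0.22, limma adjusted p = 0.171). In OE33, the probe with -2.001 in OE21 read 7.15, 7.21 and 7.04 on siRNA arrays, against 7.59, 7.90 and 7.54 on controls, without overlap. That probe gave -0.55 (SE 0.16, limma adjusted p = 0.989), and -0.43 without the second control array, while the probe with -1.999 gave -0.28 (SE 0.25), and -0.047 without that array.

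Textbook STAT3 sites follow the pattern TTCNNNGAA, which reads the same on both strands, and the narrower form TTCCNGGAA lies within it. RefSeq promoter windows of GRCh38.p14, from 250 bases before to 50 after the start of a transcript, were at hand for 26 of the 34 genes (32 windows). Those of MYC, CEBPD, MCL1, VEGFA, CCL2, NNMT, A2M and NOS2 were not used here. The wider pattern occurred in 5 of the 32 windows (15.6%), against 7.66% of all 35116 windows, and the narrower one in 3 of 32 (9.38%), against 1.15%. The match is a description of letters and was not tested, and a window without it may hold other forms of the site. The promoters of 3 targets are shown whole because their genes return in the results below, IRF1 as the member with the smallest p in OE21 and ICAM1 and LRG1 as members that differed between the lines. Capitals mark the match, which begins 124 bases before the start in IRF1 (chr5:132490724-132491023, minus strand), 75 before in ICAM1 (chr19:10270870-10271169, plus strand) and 162 before in LRG1 (chr19:4539987-4540286, minus strand).
IRF1: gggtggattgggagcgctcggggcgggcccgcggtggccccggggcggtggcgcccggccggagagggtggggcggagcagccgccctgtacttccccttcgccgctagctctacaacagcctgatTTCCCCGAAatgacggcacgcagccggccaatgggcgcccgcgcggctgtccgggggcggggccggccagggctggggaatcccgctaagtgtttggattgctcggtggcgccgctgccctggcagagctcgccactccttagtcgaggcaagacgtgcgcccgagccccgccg
ICAM1: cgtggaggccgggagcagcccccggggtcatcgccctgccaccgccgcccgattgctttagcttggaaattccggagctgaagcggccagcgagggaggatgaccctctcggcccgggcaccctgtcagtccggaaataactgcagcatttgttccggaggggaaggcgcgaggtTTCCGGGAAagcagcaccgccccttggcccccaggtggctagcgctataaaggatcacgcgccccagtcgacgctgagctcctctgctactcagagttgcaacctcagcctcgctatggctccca
LRG1: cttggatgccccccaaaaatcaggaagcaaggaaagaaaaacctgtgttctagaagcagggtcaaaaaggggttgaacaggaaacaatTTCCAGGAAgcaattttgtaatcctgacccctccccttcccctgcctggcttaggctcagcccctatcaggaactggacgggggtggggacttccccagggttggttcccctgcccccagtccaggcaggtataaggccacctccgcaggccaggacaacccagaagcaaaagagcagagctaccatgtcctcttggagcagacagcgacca
CISH (chr3:50611725-50612024, minus strand) and BCL6 (chr3:187745419-187745718, minus strand) held 4 matches each, the most in 1 window. Stretches around the matches of CISH that begin 112 and 129 bases before the start, and around the match of BCL6 that begins 28 before it, are shown because they let the spelling be set beside the single matches above.
CISH at 112: aagacgctgcTTCCGGGAAgggctggaac
CISH at 129: cagcccgcggTTCTAGGAAgacgctgctt
BCL6 at 28: gaagctcaaaTTCCGAGAAttgagctctg
The ICAM1 match and the CISH match at 112 have the same 9 letters. CISH was not detected in either line, so its promoter could not be set beside an expression value.

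No STAT3 target passed the test in OE21, and most differences were small beside that of STAT3. Of the 24 members tested, 0 were called by limma at adjusted p under 0.05, as were 0% of all 11179 genes, and 2, IRF1 and SERPINA1, had an unadjusted p under 0.05 (8.33%, against 11.3% of all genes). The differences ran from -0.34 to 0.63 with a median of 0.11, against -0.0030 over all genes, and 16 were above 0 and 8 below (66.7% above, against 49.5% of all genes). For 21 of the 24 the 95% confidence interval lay wholly above -1, that is above 50% of the control signal, and the other 3 were LCN2, IL6 and FGF2. That count rests on the probe used, as second probes of BCL2 and MCL1 had intervals reaching below -1. Of the 21, ICAM1, SERPINA1 and PIM2 averaged 4.88, 5.11 and 5.18 on the OE21 controls. The undetected member A2M averaged 4.19 there, so those genes had little room to fall by 1. No member had all 3 siRNA arrays below all 3 controls (8.94% of all genes did), and 1 had all 3 above (4.17% of members, against 7.95% of all genes).

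That member was IRF1, the interferon-induced transcription factor that acts as a growth suppressor. IRF1 read 11.21, 11.29 and 11.13 on the OE21 STAT3 siRNA arrays, against 10.82, 10.67 and 10.49 on the control arrays. The difference was 0.54 (SE 0.14, limma adjusted p = 0.301), higher on all 3 arrays but not called. In OE33, IRF1 read 10.60, 10.64 and 10.49 on the siRNA arrays, against 10.66, 10.52 and 10.83 on the controls, which overlapped, with a difference of -0.094 (SE 0.14, adjusted p = 0.991). The OE33 effect minus the OE21 effect was -0.64 (SE 0.20, limma adjusted p = 0.593), not called, and with weights for each array it was -0.80 with adjusted p = 0.0340. Interferon-stimulated genes, a list chosen with earlier results of these data known, had values in the same direction. All 16 of them were above 0 in OE21 (49.5% of all genes), with a median difference of 0.75 and 0 called. Of the 16, 8 had an unadjusted limma p under 0.05 (11.3% of all genes). In OE33 2 of 15 were above 0 (48.0% of all genes), with a median of -0.31 and 0 called. Of the 15, 4 had such a p (2.75% of all genes). Their mean deviation from the line's average was 0.56, 0.51 and 0.052 on the OE21 siRNA arrays, against -0.017, -0.73 and -0.37 on the OE21 controls. The part of this shift in the IRF1 result was not tested.

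**Figure D1:**
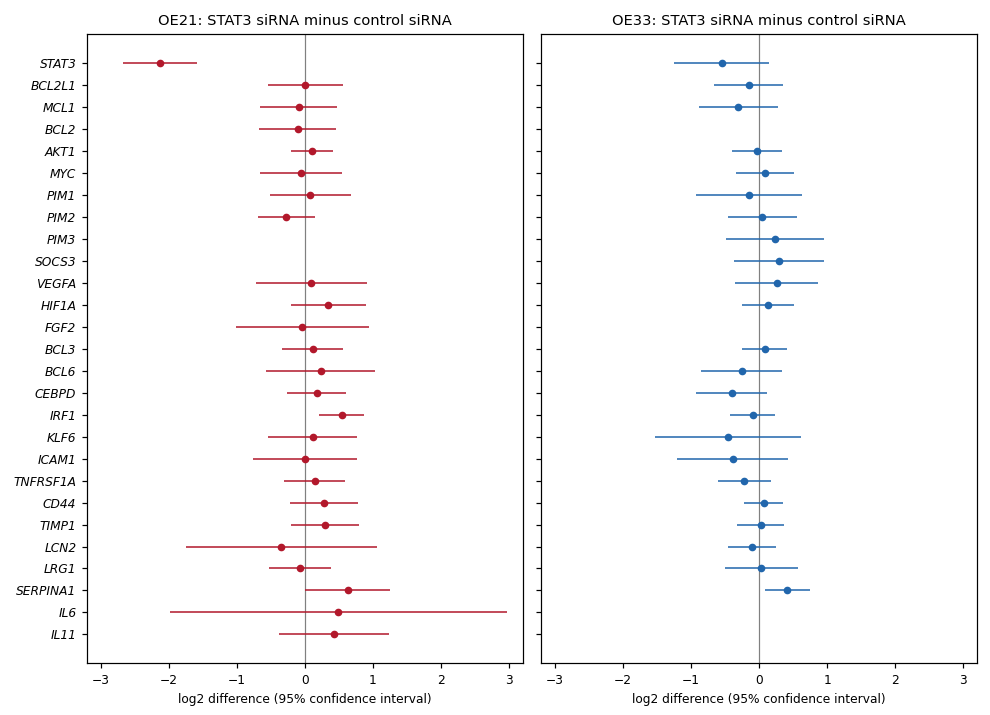
Log2 difference of STAT3 siRNA minus control siRNA (x axis) with its 95% confidence interval for STAT3 and the measured targets (y axis, ordered by role), OE21 on the left and OE33 on the right, 3 arrays against 3. STAT3 stands apart at -2.12 in OE21, while the targets run from -0.34 to 0.63 there and from -0.46 to 0.42 in OE33, and a gene with no point was not tested in that line.

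Among survival genes, BCL2L1, which encodes the anti-apoptotic BCL-XL, read 10.33, 9.98 and 10.80 in OE21 STAT3 siRNA cells, against 10.12, 10.53 and 10.43 in controls. The control arrays lay inside the range of the siRNA arrays, and the difference was 0.0076 (95% confidence interval -0.55 to 0.56). MCL1, a second BCL2 relative, gave -0.089 (SE 0.24), BCL2 itself -0.10 (SE 0.24), and the kinase AKT1 0.11 (SE 0.13). A second detected probe gave -0.57 for BCL2 (95% confidence interval -1.37 to 0.24) and -0.38 for MCL1 (-1.28 to 0.51). MYC, the growth regulator that STAT3 is known to induce, read 10.75, 10.54 and 11.22 on siRNA arrays, against 10.59, 10.78 and 11.31 on controls, a difference of -0.058 (95% confidence interval -0.66 to 0.54). For MYC 2 siRNA arrays lay inside the control range and 1 just below it. Of the PIM kinases, which support survival and growth downstream of cytokines, PIM1 gave 0.081 (SE 0.25) and PIM2, the lowest p among members below 0, -0.27 (SE 0.18, adjusted p = 0.596). PIM3 and the feedback inhibitor SOCS3 had no probe detected on 3 of the 6 OE21 arrays and were not tested there.

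VEGFA, the angiogenic growth factor, gave 0.097 (SE 0.34) in OE21, and FGF2 gave -0.035 (SE 0.41). HIF1A, the hypoxia-responsive transcription factor subunit, read 9.19, 8.92 and 8.53 on siRNA arrays, against 8.89, 8.41 and 8.31 on controls, with 0.35 (SE 0.23, adjusted p = 0.610). Its groups overlapped. The transcription regulators BCL3, BCL6, CEBPD and KLF6 ranged from 0.11 to 0.23. Of the surface molecules, ICAM1, the leukocyte adhesion receptor, gave -0.00057 (SE 0.32), the TNF receptor TNFRSF1A 0.14 (SE 0.19) and the hyaluronan receptor CD44 0.28 (SE 0.21, adjusted p = 0.649).

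Among secreted acute-phase proteins and protease inhibitors, SERPINA1, which encodes alpha-1 antitrypsin, read 6.12, 5.13 and 5.97 on OE21 STAT3 siRNA arrays, against 5.07, 5.08 and 5.18 on controls. Arrays 1 and 3 of the siRNA group were above all controls and the second was within them, and the difference was 0.63 (SE 0.26, adjusted p = 0.441). TIMP1, an inhibitor of matrix metalloproteinases, gave 0.30 (SE 0.21, adjusted p = 0.628). LCN2, the iron-siderophore binding lipocalin, read 8.32, 8.68 and 10.26 on siRNA arrays, against 8.54, 10.05 and 9.70 on controls. Its spread within each group exceeded the difference of -0.34 (SE 0.59), which is the lowest of the members on the probes used. LRG1 gave -0.065 (SE 0.19). The cytokine IL6, itself an activator of STAT3, read 6.59, 6.09 and 9.74 on siRNA arrays, against 5.55, 7.49 and 7.90 on controls, so that the highest and the lowest of the 6 arrays lay in different groups and the interval of the difference, -1.99 to 2.97, was the widest of the members. Its relative IL11 gave 0.43 (SE 0.34).

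Single arrays stood out for the targets in OE21, and over all genes tested there the arrays also varied in sets that crossed the siRNA label. Deviations from the group mean correlated at 0.502 and 0.465 between siRNA array 3 and control arrays 3 and 2, and at -0.729 with control array 1. Control array 1 correlated at 0.450 and 0.651 with siRNA arrays 1 and 2, which correlated negatively with control arrays 2 and 3. Deviations within a group sum to 0 for each gene, so the opposite signs are in part imposed and are not separate observations. The third STAT3 siRNA array, which read highest of the siRNA arrays on 2 of the 3 STAT3 probes and lowest on the other, was the highest of the 6 for 10 of the 24 members (41.7%, against 15.5% of all genes). The first control array was the lowest for 10 (41.7%, against 16.8% of all genes). Without that siRNA array 12 of 23 members were above 0 with a median of 0.0093, and without that control array 13 of 23 with a median of 0.065. These array shares are descriptions of the 6 arrays. Genes of the NF-kB pathway were also highest on the third siRNA array, with mean deviations of 0.31, -0.039 and 0.47 on the siRNA arrays, against -0.54, -0.034 and -0.17 on the controls, and the part of this in the members' values was not tested.

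**Figure D2:**
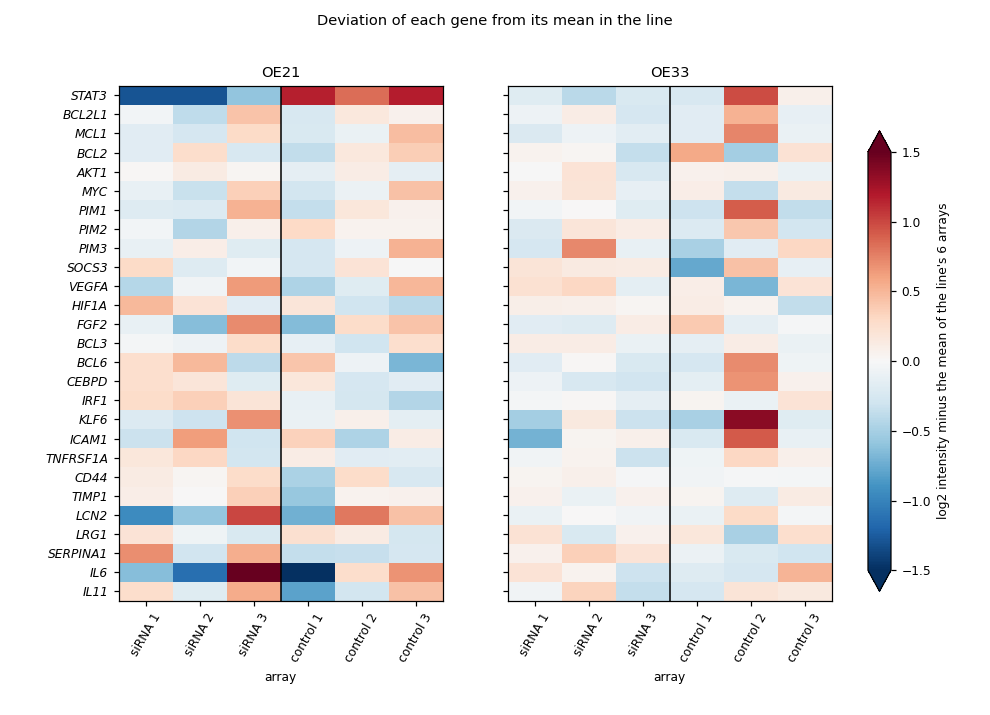
Deviation of log2 intensity from the gene's mean over the line's 6 arrays (colour, red above and blue below) for STAT3 and the 26 measured targets (rows) on each array (columns, STAT3 siRNA left of the black line and control siRNA right), OE21 on the left and OE33 on the right. STAT3 separates the groups in OE21 and of the tested targets IRF1 alone does, and the reddest columns are STAT3 siRNA 3 in OE21, highest for 10 of 24 tested members, and control 2 in OE33, highest for 11 of 22.

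In OE33, likewise, 0 of the 22 members tested were called by limma, as were 0% of all 10634 genes, and 1, SERPINA1, had an unadjusted p under 0.05 (4.55%, against 2.75% of all genes). The differences ran from -0.46 to 0.42 with a median of -0.0031, against -0.0098 over all genes, with 11 above 0 and 11 below. The interval lay wholly above -1 for 20 of the 22, KLF6 and ICAM1 being the exceptions. Of the 20, SERPINA1, PIM3 and SOCS3 averaged 4.51, 4.83 and 5.34 on the OE33 controls. The undetected member A2M averaged 4.28 there, so those genes had little room to fall by 1. In 2 members all siRNA arrays were above all controls (9.09%, against 3.53% of all genes), and in 0 they were all below (4.19% of all genes).

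The 2 were SERPINA1 and CD44. SERPINA1 read 4.78, 5.07 and 4.92 on OE33 STAT3 siRNA arrays, against 4.62, 4.48 and 4.42 on controls. This probe was detected on all 3 siRNA arrays and on none of the controls. Its level on the controls is therefore a bound, set on each array at the lowest detected signal or the probe's own. Against that bound the siRNA mean was 1.31-fold higher, which takes no account of the spread between arrays. The fitted difference was 0.42 (confidence interval 0.084 to 0.75, limma adjusted p = 0.991) and was not called. Another SERPINA1 probe read 4.56, 4.47 and 4.51 on the siRNA arrays, with 0 detected, against 4.37, 5.10 and 5.06 on the controls, with 1 detected, and was not tested. CD44 read 12.23, 12.28 and 12.18 on siRNA arrays, against 12.14, 12.18 and 12.17 on controls, so that the groups nearly touched, with a difference of 0.068 (SE 0.12).

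None of the growth and survival genes passed the test in OE33 either. MYC read 11.81, 11.95 and 11.62 on STAT3 siRNA arrays, against 11.85, 11.39 and 11.88 on controls, with a difference of 0.085 (95% confidence interval -0.34 to 0.51). BCL2L1 gave -0.15 (SE 0.22), AKT1 -0.030 (SE 0.16), PIM2 0.052 (SE 0.22), PIM3 0.23 (SE 0.31), HIF1A 0.14 (SE 0.16) and VEGFA 0.26 (SE 0.26). SOCS3, the inhibitor that STAT3 induces to switch off its own receptors, read 5.68, 5.62 and 5.61 on siRNA arrays, against 4.73, 5.93 and 5.37 on controls. The siRNA arrays sat inside the wide range of the controls, the difference was 0.29 (SE 0.28, adjusted p = 0.991), and it was -0.015 without the first control array. A second SOCS3 probe read 5.50, 5.31 and 5.083 on siRNA arrays, against 4.87, 5.076 and 4.51 on controls. Its siRNA arrays were all above its controls, narrowly on 1 array, and the difference was 0.48 (SE 0.20, limma adjusted p = 0.989). BCL2, FGF2, IL6 and IL11 were not detected often enough in OE33 to be tested.

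The largest downward values in OE33 were nearer to 0 or above it without the second control array. KLF6, a zinc-finger transcription factor, read 11.03, 11.68 and 11.21 on siRNA arrays, against 11.06, 12.89 and 11.36 on controls, with -0.46 (SE 0.46). Its value was 0.10 without that array. CEBPD, the acute-phase regulator C/EBP delta, read 9.36, 9.19 and 9.14 on siRNA arrays, against 9.28, 10.11 and 9.50 on controls, with -0.40 (SE 0.22, adjusted p = 0.991) and -0.16 without the array. For ICAM1 the difference was -0.39 (SE 0.35) and -0.024 without it, for MCL1 -0.31 (SE 0.25) and -0.016, for PIM1 -0.15 (SE 0.33) and 0.27, and for BCL6 -0.26 (SE 0.25) and 0.033. TNFRSF1A gave -0.22 (SE 0.17) and -0.11. These genes all read higher on that array than on the other controls, so leaving it out can only raise their differences. That control array, the highest in STAT3, was the highest or the lowest of the 6 for 68.2% of members and for 66.4% of all genes. It was the lowest for LRG1, MYC, TIMP1 and VEGFA, whose differences become lower when it is left out. BCL3, TIMP1, LCN2 and LRG1 lay between -0.10 and 0.085 with all arrays.

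The siRNA differences can be read against the spread of the control arrays. The size of the difference was under the range of the 3 control arrays for 21 of 24 members in OE21 (87.5%, against 80.0% of all genes) and for 20 of 22 in OE33 (90.9%, against 91.3%). The median size was 0.131 in OE21, where the median control range was 0.605, and 0.149 in OE33, where it was 0.685. Between the lines, the siRNA effect differed for 0 of 26 members by limma (0% of all 12322 genes), and 1, IRF1, had an unadjusted p under 0.05 (3.85%, against 6.73% of all genes). The OE33 effect was the lower one for 19 of the 26 and the higher one for 7 (26.9%, against 48.9% of all genes). The median was -0.21, against -0.0093 over all genes, and the probes of 6 of the 26 were detected on 0 arrays of some group. Without the first OE21 control array the median was -0.060, and without the third OE21 siRNA array -0.076. With weights for each array it was above 0, at 0.0355.

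**Figure D3:**
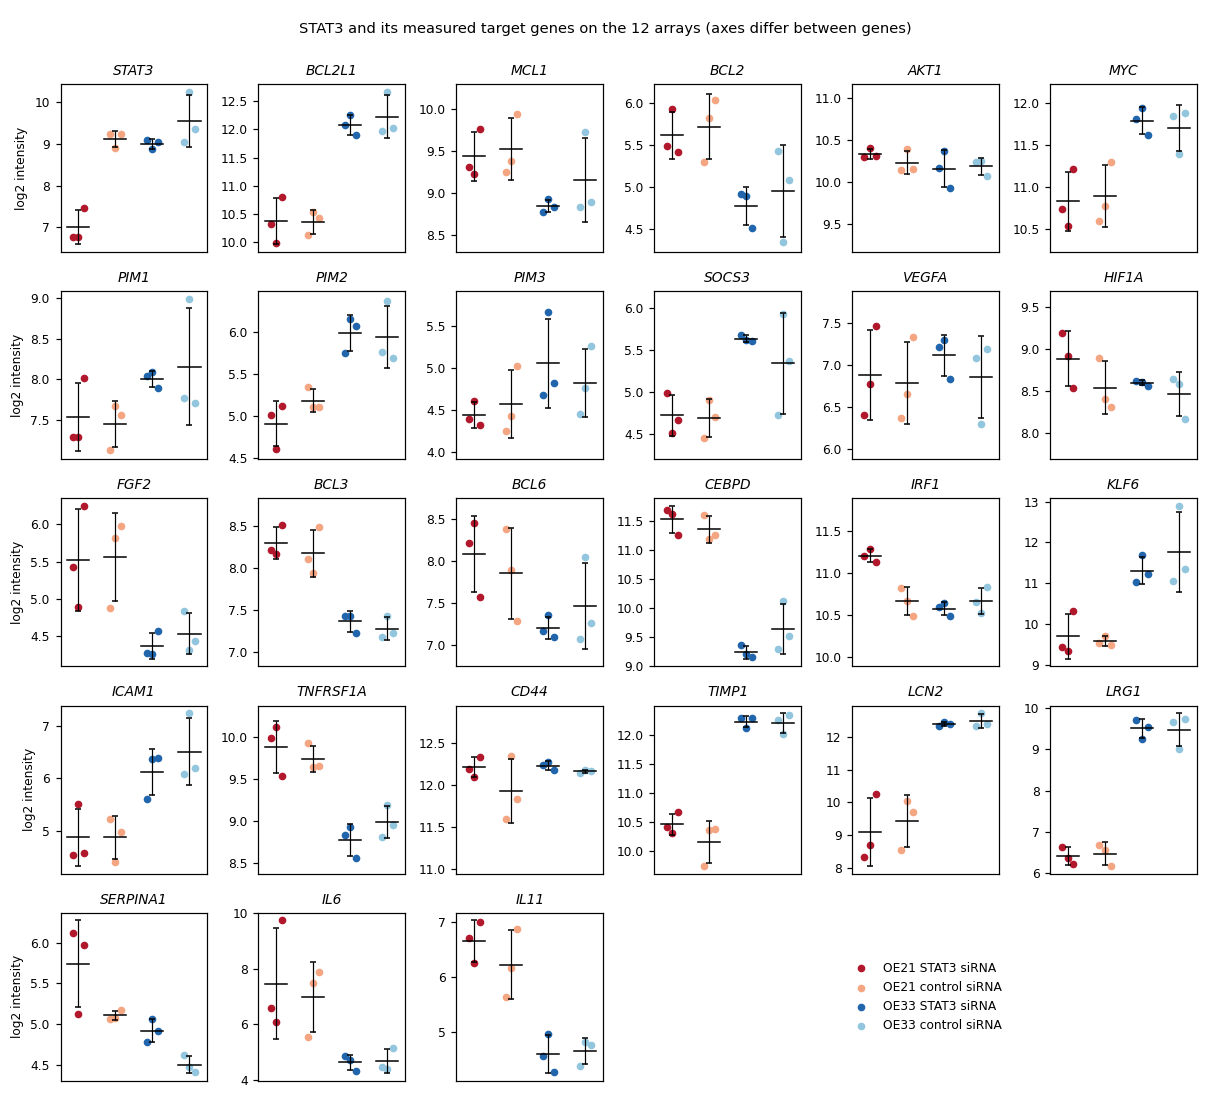
Log2 intensity (y axis, its own scale for each gene) of STAT3 and the 26 measured targets on the 12 arrays, each point 1 array, bars the mean and SD of 3, with groups from left to right OE21 STAT3 siRNA, OE21 control siRNA, OE33 STAT3 siRNA and OE33 control siRNA. STAT3 lies at 6.76, 6.77 and 7.47 in OE21 STAT3 siRNA cells, against 9.23, 8.90 and 9.24 in OE21 controls, and 16 of the 26 targets are called between the control cells of the lines.

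Between the control cells of the 2 lines, OE33 minus OE21, many targets differed. Of 26 members, 16 were called by limma (61.5%, against 49.2% of all genes), 8 higher in OE33 (30.8%, against 25% of all genes) and 8 lower (30.8%, against 24.2%). Whether these shares differ from those of all genes was not tested. The differences ran from -2.30 to 3.08. STAT3 itself was not called, at 0.43 (SE 0.29, adjusted p = 0.239). These contrasts set a line and its reagent together, which cannot be told apart.

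The largest differences were those of the secreted proteins LCN2 and LRG1. LRG1, a secreted leucine-rich glycoprotein of the acute phase, read 9.67, 9.01 and 9.75 in OE33 controls, against 6.68, 6.56 and 6.17 in OE21 controls. All OE33 arrays were above all OE21 arrays by more than 2 log2 units, and the difference was 3.01 (SE 0.22, adjusted p = 4.46e-07). LCN2 read 12.35, 12.74 and 12.42 in OE33 controls, against 8.54, 10.05 and 9.70 in OE21 controls, with 3.08 (SE 0.46, adjusted p = 1.63e-04). TIMP1 was higher by 2.03 (SE 0.19, adjusted p = 2.90e-06). SERPINA1 went the other way at -0.60 (SE 0.22, confidence interval -1.08 to -0.12, adjusted p = 0.0389). Its probe was below detection on the OE33 controls. The mean there was at least 1.49-fold lower, a bound that takes no account of the spread between arrays. However, the second detected probe of SERPINA1 gave 0.10. The SERPINA1 call was lost without any 1 of the 6 control arrays, at -0.66 to -0.56.

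The cytokines were lower in OE33. IL6 was below detection on all OE33 controls, against 5.55, 7.49 and 7.90 on the OE21 controls. The OE33 mean was at least 4.78-fold lower, a bound that takes no account of the spread between arrays. The fitted difference was -2.30 (SE 0.82, confidence interval -4.08 to -0.52, adjusted p = 0.0341). The IL6 call was lost without any 1 of 4 arrays (OE21 control 2 or 3, OE33 control 1 or 2), at -2.19 to -1.84. IL11 was lower, at -1.57 (SE 0.30, adjusted p = 0.00110), detected on 1 of 3 OE33 controls and on all OE21 controls. The probe used for the growth factor FGF2 was below detection in OE33. Its mean there was at least 1.94-fold lower, a bound of the same kind. The fitted difference was -1.02 (SE 0.34, confidence interval -1.76 to -0.28, adjusted p = 0.0254). That call was lost without control array 2 or 3 of either line, at -0.98 to -0.82. Another FGF2 probe was detected on 1 OE33 control and 0 OE21 arrays and was not tested. LRG1 and LCN2 were higher in the line where IL6 was below detection.

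Survival and growth genes were divided. BCL2L1 was higher in OE33, at 11.98, 12.67 and 12.03 in OE33 controls, against 10.12, 10.53 and 10.43 in OE21 controls, with 1.86 (SE 0.24, adjusted p = 4.68e-05). BCL2 was lower, at -0.77 (SE 0.28, adjusted p = 0.0382) and -0.47 without the second OE33 control array. Its call was lost without control array 2 or 3 of either line, at -0.83 to -0.47. MYC was higher by 0.81 (SE 0.23, adjusted p = 0.0114) and PIM2 by 0.76 (SE 0.21, adjusted p = 0.00995). PIM1, at 0.70 (SE 0.32, adjusted p = 0.0864), and SOCS3, at 0.65 (SE 0.26, adjusted p = 0.0533) with its probe detected on 0 OE21 arrays, were not called.

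Transcription regulators also took both directions. CEBPD read 9.28, 10.11 and 9.50 in OE33 controls, against 11.60, 11.18 and 11.26 in OE21 controls, without overlap, and was lower, at -1.72 (SE 0.21, adjusted p = 3.98e-05). BCL3, an atypical IkB protein that partners NF-kB subunits, was lower, at -0.90 (SE 0.17, adjusted p = 9.28e-04), and KLF6 was higher by 2.19 (SE 0.41, adjusted p = 9.30e-04). IRF1 stood at 10.67 ± 0.15 in OE33 controls and 10.66 ± 0.17 in OE21 controls (SD, n = 3 each), a difference of 0.0055 (95% confidence interval -0.30 to 0.31). By contrast, 15 of 16 interferon-stimulated genes were called lower in OE33, against 24.2% of all genes. ICAM1 was higher by 1.63 (SE 0.36, adjusted p = 0.00287) and TNFRSF1A lower, at -0.75 (SE 0.18, adjusted p = 0.00505). MCL1, CD44, BCL6, PIM3, HIF1A, AKT1 and VEGFA were not called on the probes used and lay between -0.39 and 0.26. The second detected probe of MCL1, however, was lower in OE33, at -1.14 (SE 0.30). It passed over all 16420 probes tested singly (limma adjusted p = 0.00808).

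**Figure D4:**
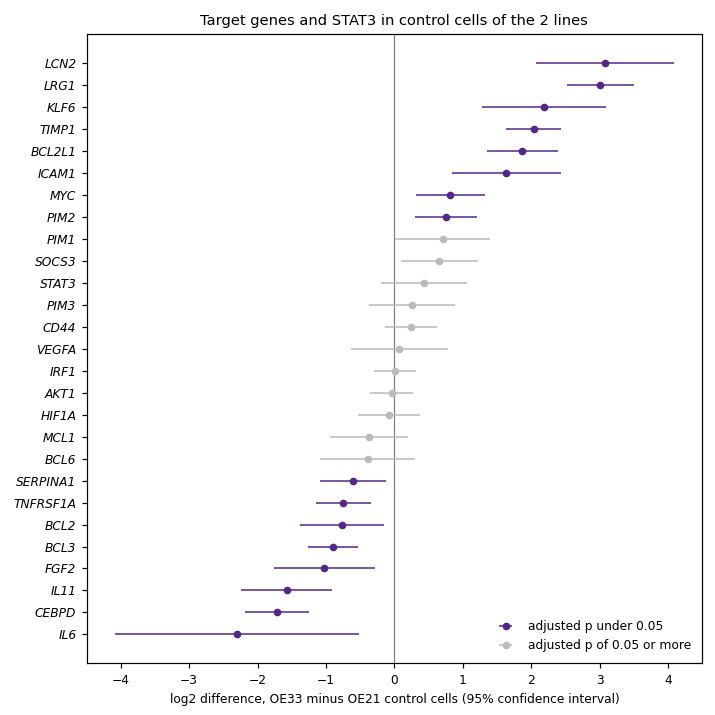
Log2 difference between control cells, OE33 minus OE21 (x axis, 95% confidence intervals, 3 arrays each), for STAT3 and the 26 measured targets, sorted by value, with genes at adjusted p under 0.05 in purple. LCN2 at 3.08 and LRG1 at 3.01 are the highest, IL6 at -2.30 is the lowest, and 8 targets are called on either side.

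10 members had several detected probes, and some probes of 1 gene differed. In OE33 the BCL2L1 probes gave siRNA differences of -0.15 and 0.25, and the VEGFA probes 0.26 and -0.12. In OE21 the MCL1 probes gave -0.38 and -0.089, and the BCL2 probes -0.57 and -0.10. Between the control cells, the SOCS3 probes gave 0.65 and -0.18, and the MCL1 probes -0.37 and -1.14. The 8 members with no measured probe were the feedback inhibitor CISH, the growth factor HGF, the acute-phase genes A2M, SERPINA3 and FGG, the chemokine CCL2, and the enzymes NNMT and NOS2, whose probes were detected on fewer than 3 arrays.

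Other STAT3 targets and pathway genes, listed apart from the members, were read beside them. Of 18 other targets, 13 were tested in OE21, with a median of 0.34 and 0 called. Of these 13, 10 were above 0, against 49.5% of all genes. An unadjusted limma p under 0.05 was reached by 3 (TWIST1 0.59, SERPINB3 0.96 and IL6ST 1.07), against 11.3% of all genes. In OE33 8 were tested with a median of 0.050, and 0 were called, CCND1 having the smallest p at -0.33. Of 27 receptors, kinases and regulators of the pathway, STAT3 among them, 22 were tested in OE21 and 20 in OE33, and 0 were called in either. In OE21 16 of the 22 were above 0 (49.5% of all genes), and 6 had an unadjusted limma p under 0.05 (11.3% of all genes). In OE33 9 of the 20 were above 0 (48.0% of all genes), and 0 had such a p (2.75% of all genes). IL22RA1 (0.72) and IL10RB (0.70), receptor chains for IL-10 family cytokines, had the smallest p in OE21 after STAT3. Between control cells, 1 of the 13 other targets was called higher in OE33 (25% of all genes) and 8 lower (24.2% of all genes). S100A8 at -6.29, S100A9 at -4.28 and TWIST1 at -2.62 had the smallest p. In a bulk culture, fewer cells with a transcript and less of it per cell cannot be told apart.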

How the data were processed

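RNA of 12 cultures was measured on Illumina BeadChips. Per the labels' protocols it was extracted on RNeasy Plus columns and turned into biotinylated cRNA. The authors deposited probe intensity values on a linear scale, not normalised between arrays, and a detection p-value beside each intensity, per the file headers. The making of that p-value is not stated in those sources. Normalised intensity values, which the authors also deposited with no method named in the labels, served as an alternative (array medians 106.4 to 107.2).

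The neqc function (limma 3.58.1, R 4.3.3, offset 16) corrected background and normalised by quantiles, and took the background from the detection p-values. These followed intensity closely but not strictly (Spearman -0.989), so the inferred background is an approximation. Of 47323 probes, 4 with missing values were left out. GEO's annotation gave 30113 probes 1 symbol, 8 several and 17202 none, and a gene's probe with the highest mean stood for it. Each line was fitted alone (4 residual degrees of freedom), and all 12 arrays together (8 residual degrees of freedom) gave the contrasts between lines. A probe needed a detection p under 0.01 on 3 arrays of the fit. Tests were limma's two-sided moderated tests with Benjamini-Hochberg adjustment over all genes, called under 0.05. The number of arrays limits the precision.

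Alternatives were the authors' values, no background correction, normexp with offset 50, no detection filter, each probe alone, array weights, limma-trend, a replicate block, all 12 arrays in 1 fit, and leaving out each array. Same-numbered arrays of a line deviated together at correlations of 0.450, -0.399 and 0.502 in OE21 and 0.101, 0.340 and 0.135 in OE33, so the numbers met the limit for pairing of 0.1 only in OE33. Differently numbered OE33 arrays also reached 0.196 (siRNA 3 with control 1) and 0.121 (siRNA 1 with control 3). The remaining such OE33 pairs lay at -0.293 to -0.137. Meeting the limit therefore does not show that OE33 arrays were paired. All 12 arrays carry 1 array identifier, so no slide batch was testable. Members and lists were chosen with earlier results of these data known. All 34 members are named, and of other lists the genes with the smallest p. Untreated cells and a few listed genes were not analysed here.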

Additional observations from a re-analysis of the deposited data

How the results depend on the processing

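The STAT3 target genes were called in 0 cases in either siRNA comparison under all 15 alternatives of each line, by limma at adjusted p under 0.05. The number of all genes called in OE21 was 1 with each probe on its own, 270 with array weights and 12 with all 12 arrays in 1 fit, against 0, and each of these called STAT3. With array weights the difference between the lines' siRNA effects called 229 genes and 1 member, IRF1, and the members' median was 0.0355. Leaving out 1 array at a time, that median ran from -0.254 to -0.0595, and the OE33 siRNA median from -0.127 to 0.0188. The OE33 difference of SOCS3 ran from -0.0150 without the first control array to 0.59 without the second. Between control cells, 12 to 17 members were called over the 14 alternatives, and 12 of the 16 called members kept their call under each. The other 4 were IL6, BCL2, SERPINA1 and FGF2, called under 6, 5, 3 and 10 of the 14. With the replicate block, which changed no other call named here, BCL2 had adjusted p = 0.0592 and 15 members were called, and both siRNA comparisons still called 0 genes. The probes used for FGF2, IL6 and SERPINA1 were below detection on all OE33 controls. Without the second OE33 control, an alternative added after seeing the data, the 3 STAT3 probes gave -0.047, -0.19 and -0.43. The cause of these changes was not tested.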
